A study of Mus musculus with 14 samples.

Results

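The 7 genes described here, Myl4, Myl7, Sln, Nppa, Nppb, Dkk3 and Pam, were taken by name from the 15894 genes of the deposited expression table. They were put together as markers of atrial heart muscle and of a stretched heart wall, and all 7 were found and exceeded the low-value filter in every comparison. Myl7 and Myl4 encode the regulatory and the essential light chain of atrial myosin. Sln encodes sarcolipin, a small membrane protein that inhibits the calcium pump of the sarcoplasmic reticulum and is abundant in atrial muscle, where phospholamban (Pln) plays the same part in the ventricle. Nppa and Nppb encode the precursors of atrial and B-type natriuretic peptide, hormones that lower blood volume and pressure. Pam encodes the enzyme that amidates the ends of secreted peptides and is a major membrane protein of atrial secretory granules, and Dkk3 encodes a secreted Dickkopf-family glycoprotein.

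As background, working atrial muscle of the mouse keeps Nppa, Myl7, Myl4 and Sln high throughout life. In the fetus the trabeculae of the ventricles also transcribe Nppa and Nppb, the compact outer wall much less, and Nppb in particular responds to wall stretch. The epicardium, the outer cell layer of the heart, is not known as a main source of these muscle transcripts.

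RNA was measured by poly(A) RNA-seq in the epicardial and subepicardial layer dissected from mouse hearts at E16.5, in 14 libraries of 60-base single reads, each from a pool of 2 hearts. The study asks how the dorsal face of the heart differs from the ventral face, and males from females. There were 3 female ventral and 3 female dorsal libraries (numbers 1 to 3), 4 male ventral libraries (numbers 4 to 7) and 3 male dorsal libraries (numbers 4 to 6). Male library 7 of the remaining kind has a title and source name that say dorsal and a tissue field that says ventral, so it was left out of the regional tests and is called unsettled. All groups carry the genotype Tbx18Cre in their labels, a Cre recombinase expressed from the epicardial gene Tbx18, with no other allele and no treatment named, and the study calls these hearts wild type. The female numbers run from 1 to 3 and the male numbers from 4 to 7, so sex and numbering series cannot be told apart. Libraries held 13.9 to 25.2 M reads on the listed genes, and 3 reads in a library correspond to between 0.135 and 0.253 normalized CPM, the authors' CPM over an effective library size. The lowest member count in any library was 74 reads, for Sln in female dorsal 2.

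Lists of defining markers were compared with the tissue label. The 10 epicardial markers, among them Upk3b and Wt1, were all listed, with summed levels of 1737 to 2769 normalized CPM in female ventral, 457 to 652 in female dorsal, 2066 to 5956 in male ventral and 1594 to 4276 in male dorsal libraries. Tbx5, which also stands in the atrial list used below, made 119 of the 457 in female dorsal 1 and between 9.78 and 24.6 in the other libraries. The 6 ventricular muscle markers, led by Myh7, Myl3 and Myl2, were listed too and summed to between 6342 and 17073 normalized CPM over the 14 libraries, more than the epicardial markers in every library. Atrial markers were listed for 5 of 6 genes, with Bmp10 not listed, and summed to 12476 normalized CPM in female dorsal 1 against 492 to 2026 in the other 13 libraries. This sum is nearly all from the members Myl7, Nppa, Myl4 and Sln, and the only other marker listed, Kcna5, was at 0.594 times the highest other library in female dorsal 1. Female dorsal 1 stood apart for most members, and the results for the members are given with and without it. It was singled out by these same values, so the results without it are not independent support.

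Reference promoters bear on the natriuretic peptide pair, whose genes lie on the same strand of chromosome 4 with 14822 bases between their RefSeq starts. RefSeq (GRCm38.p6) promoter sequence was at hand for 5 of the 7 genes, Sln and Dkk3 being the others. The upstream window of Nppa (chr4:148000472-148000721, plus strand) is shown because the gene had the largest regional change. The corresponding window of Myl7 (chr11:5898783-5899032, minus strand) is set beside it as that of the most abundant atrial gene, and a short stretch of the Nppb window (chr4:147985801-147985830, plus strand) as that of the other natriuretic peptide gene. The RefSeq start used for Nppb lies downstream of the GENCODE gene start given below (chr4:147985788), so this stretch is upstream of the one and inside the gene by the other. Capitals mark GATAA (the core of a GATA site), TCACACC (a T-box half-site), AAGTGG (an NK2 site), GGAATG (a TEAD-type site) and the CArG box of serum response factor, searched on both strands, where TTATC is GATAA and CATTCC is GGAATG on the opposite strand.
Nppa, 250 bases before the start: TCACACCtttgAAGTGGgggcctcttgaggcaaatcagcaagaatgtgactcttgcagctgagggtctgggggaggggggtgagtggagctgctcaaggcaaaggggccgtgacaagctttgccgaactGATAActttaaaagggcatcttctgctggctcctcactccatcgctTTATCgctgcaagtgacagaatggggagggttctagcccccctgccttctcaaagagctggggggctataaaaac
Myl7, 250 bases before the start: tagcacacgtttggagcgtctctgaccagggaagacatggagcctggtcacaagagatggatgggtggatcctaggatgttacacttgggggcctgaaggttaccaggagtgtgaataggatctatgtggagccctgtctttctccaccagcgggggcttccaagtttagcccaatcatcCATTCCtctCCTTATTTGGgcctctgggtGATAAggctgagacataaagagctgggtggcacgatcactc
Nppb, 30 bases: cagctGATAAatcagaGATAAccccacccc
In the Nppa window GATAA stood at positions -121 to -117 and, on the opposite strand, -75 to -71, counted back from the start site, with TCACACC at -250 to -244 and AAGTGG at -239 to -234. Nppb held GATAA on the same strand at -94 to -90 and -83 to -79, and also GGAATG at -105 to -100. The Myl7 window held the CArG box at -61 to -52, GATAA at -41 to -37 and GGAATG, opposite strand, at -70 to -65, whereas Myl4 held only AAGTGG, at -111 to -106, and neither of 2 Pam start sites held any of the 5. Among 32851 promoters of the same length, GATAA occurred in 22.6%, AAGTGG in 14.1%, GGAATG in 12.6%, TCACACC in 3.33% and the CArG box in 1.47%. These matches describe letters in a window and were not tested for binding.

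The order of the 7 genes by level was taken per kilobase of annotated exon. The median over the 14 libraries was 1167 normalized CPM per kb for Myl7, 107 for Nppa, 91.8 for Nppb, 63.1 for Myl4, 14.6 for Sln, 13.9 for Pam and 6.30 for Dkk3. Myl7 was above Nppa in 13 of 14 libraries and Myl4 above Sln in 13, so these steps held almost throughout. Nppa exceeded Nppb in 11 of 14 libraries, Nppb exceeded Myl4 in 10 and Sln exceeded Pam in 9, and these neighbours did not separate beyond their spread.

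**Figure D1:**
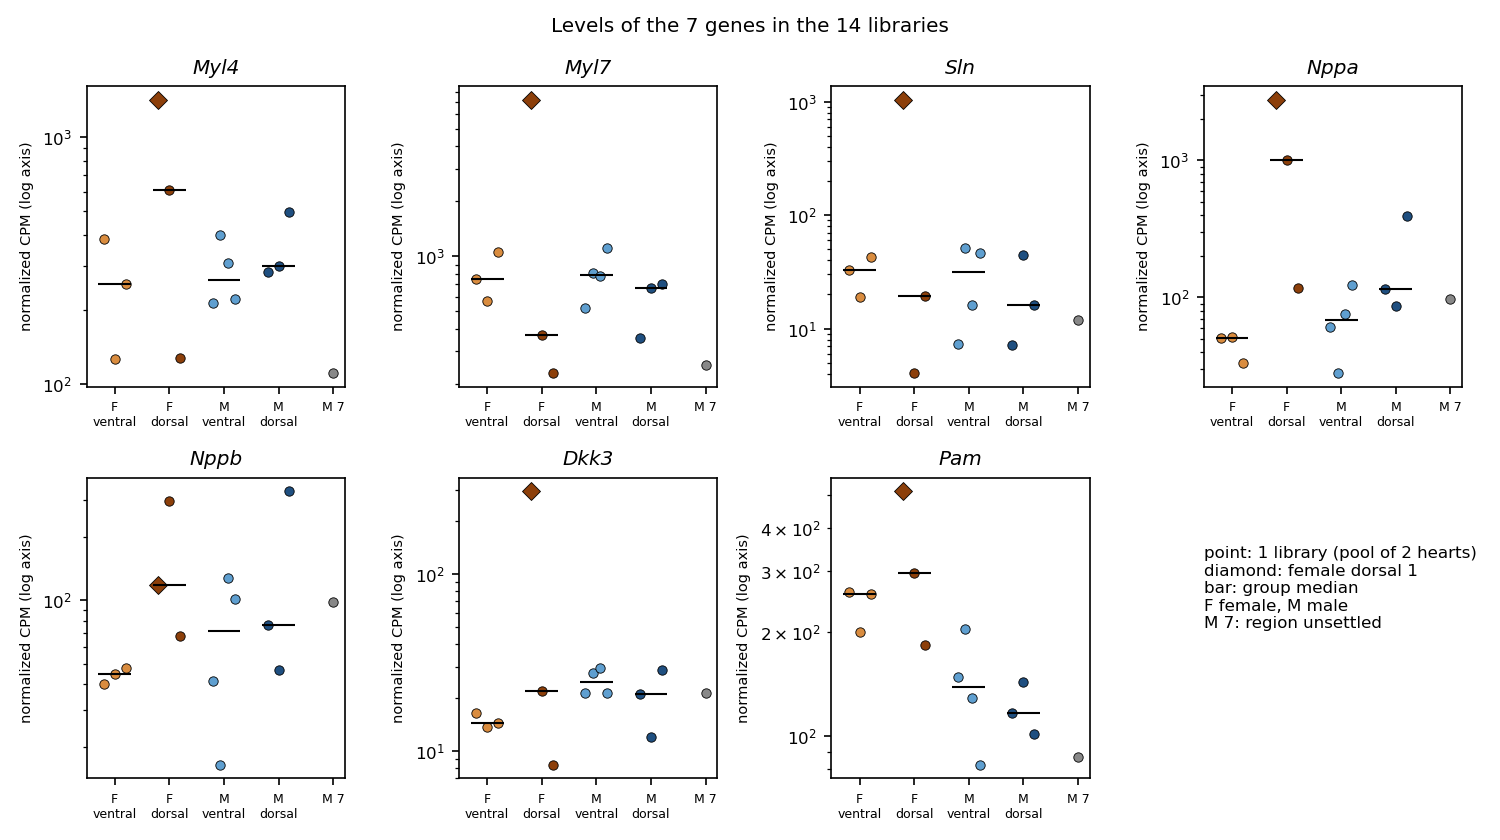
Normalized CPM on a log axis for the 7 genes, with 1 point for each library in its group, a bar for the group median and a diamond for female dorsal 1. The diamond is the highest point for every gene but Nppb, and the female dorsal Nppa points lie above all 3 female ventral ones.

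Nppa was the gene with the clearest regional pattern, higher on the dorsal face in females. Its gene lies at chr4:148000722-148002079 on the plus strand (GENCODE M21, GRCm38). Female dorsal libraries held 2775, 1008 and 116 normalized CPM and female ventral libraries 50.2, 51.7 and 33.2, while male dorsal libraries held 115, 87.2 and 390 and male ventral libraries 61.0, 28.0, 75.7 and 123. The unsettled library held 97.3. In females the lowest dorsal value was above the highest ventral one. In males the groups overlapped, since male ventral 7 was above male dorsal 4 and 5. The group means were 1300 ± 1353 (SD, n = 3) in female dorsal and 45.0 ± 10.3 (n = 3) in female ventral, 197 ± 168 (n = 3) in male dorsal and 71.9 ± 39.3 (n = 4) in male ventral libraries. The fitted change, ventral minus dorsal on log2(normalized CPM + 1), was -3.93 ± 0.88 (SE) in females (limma, Benjamini-Hochberg adjusted p = 0.0101) and -2.93 ± 0.70 without female dorsal 1 (adjusted p = 0.0191). It was -1.30 ± 0.54 in males (adjusted p = 0.333) and -2.53 ± 0.66 over both sexes (adjusted p = 0.0190), or -1.97 ± 0.54 over both sexes without female dorsal 1 (adjusted p = 0.0305). The call over both sexes was kept under 24 of 26 alternatives. It was lost without female dorsal 2 (-2.27, limma adjusted p = 0.0503) and with the epicardial markers as a covariate (-2.35 ± 0.93, limma adjusted p = 0.253). With that covariate no gene was called, so the lost call is not particular to Nppa. Of the epicardial markers, 7 of 10 were called higher ventrally over both sexes (3 of 10 without female dorsal 1). Their median log2 change was 1.29, against 0.03 over all genes. The share of all genes called higher ventrally is not given here. In bulk RNA, more muscle cells and more RNA per muscle cell cannot be told apart.

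Nppb, whose gene lies at chr4:147985788-147987205 on the plus strand, was also higher dorsally in females. Female dorsal libraries held 118, 297 and 67.5 normalized CPM against 40.1, 44.6 and 47.4 in female ventral libraries, again with no overlap. Male dorsal libraries held 76.0, 46.6 and 331, and male ventral libraries 41.1, 16.5, 128 and 101, with the unsettled library at 98.6. Here the library with the highest value was male dorsal 6, and female dorsal 1, the highest for the other 6 genes, was below male dorsal 6, female dorsal 2 and male ventral 6. The female change was -1.58 ± 0.42 (SE, n = 3 against 3, limma adjusted p = 0.0204) and -1.67 ± 0.48 without female dorsal 1 (adjusted p = 0.0387). It rested on the ventral libraries too, since leaving out female ventral 2 or 3 gave adjusted p of 0.0676 and 0.0514. In males the change was -0.93 ± 0.75 (adjusted p = 0.583), and over both sexes -1.24 ± 0.50 (adjusted p = 0.0925).

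Both natriuretic peptide genes were called in the female comparison, and no other member was, so 2 of 7 were called and both were higher dorsally. Over all 14411 genes tested there, 27.8% were called in either direction and 13.3% were called higher dorsally, while 21.6% had groups that did not overlap with dorsal higher. Without female dorsal 1, 3 of the 7 were called, against 22.9% of 14114 genes. In male hearts 0 of the 7 and 0 of 14917 genes (0%) were called by limma, with 2083 genes at an unadjusted p under 0.05, and edgeR also called 0. Over both sexes 1 of 7 was called, where 9.06% of genes were called higher dorsally. The regional changes of males and females differed by 2.63 ± 1.18 on the log2 scale for Nppa (interaction term, adjusted p = 0.301) and by 0.65 ± 1.01 for Nppb (adjusted p = 0.813). By this test 0 of the 7 and 2.73% of all genes were called, and Nppa was called without female dorsal 3 (3.91, adjusted p = 0.0255).

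Libraries that share a number also resembled each other, so each dorsal library was set against the ventral library of its number. Nppa was higher dorsally in 6 of 6 pairs, by 55.3, 19.5 and 3.505 times in females and 1.88, 3.11 and 5.15 times in males. Nppb was higher dorsally in 6 of 6 pairs as well, by 2.96, 6.67 and 1.42 times in females and 1.85, 2.82 and 2.58 times in males. Of the 15772 genes of the joint fit, 9.23% were higher dorsally in all 6 pairs. With the number as a block, the male change was -1.62 ± 0.21 for Nppa (limma adjusted p = 0.00225) and -1.22 ± 0.17 for Nppb (adjusted p = 0.00268), so 2 of the 7 were called, both higher dorsally, where 0.0939% of genes were. The block over both sexes likewise gave Nppb -1.40 ± 0.23 (adjusted p = 0.0221), with 6.37% of genes called higher dorsally. Without the block neither gene was called in males.

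**Figure D2:**
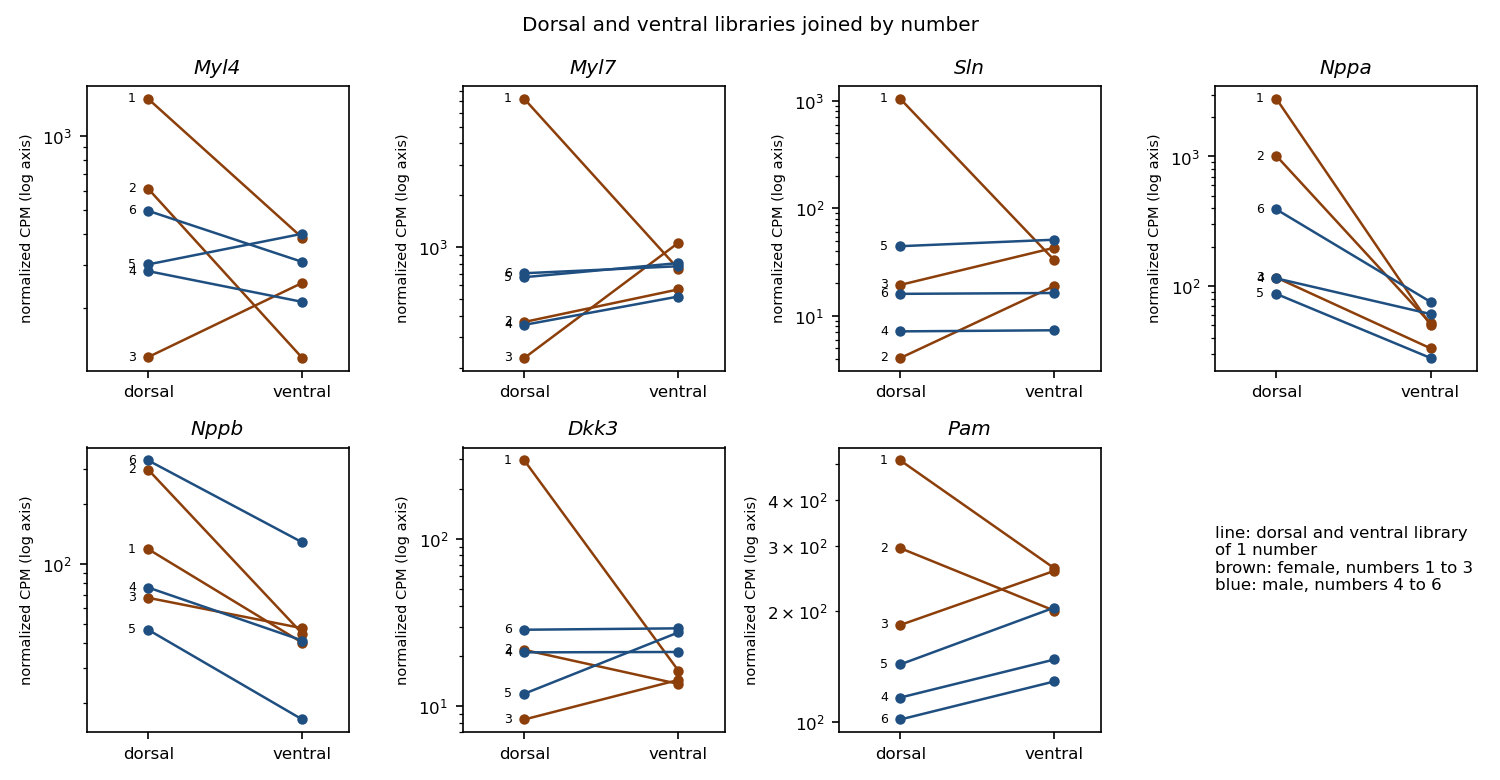
Normalized CPM on a log axis in the dorsal and ventral library of each number, joined by a line (brown for female numbers 1 to 3, blue for male numbers 4 to 6). All 6 lines fall from dorsal to ventral for Nppa and Nppb, whereas for Myl7 and Sln only the line of female number 1 falls.

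Myl7, at chr11:5896637-5898782 on the minus strand, had the highest level of the 7 per kilobase, and its regional pattern depended on 1 library. Female dorsal libraries held 7228, 369 and 228 normalized CPM and female ventral libraries 748, 570 and 1061. Male dorsal libraries held 355, 670 and 707, male ventral libraries 518, 809, 776 and 1104, and the unsettled library 254. Female dorsal 1 was 6.55 times the highest other library, whereas the remaining female dorsal libraries were below all 3 ventral ones. The female change was -0.14 ± 1.02 (SE, limma adjusted p = 0.931) with all libraries and 1.40 ± 0.28 (adjusted p = 0.0104), higher ventrally, without female dorsal 1. The male change was 0.49 ± 0.29 (adjusted p = 0.468). Over both sexes it was 0.19 ± 0.58 (adjusted p = 0.843), and 0.86 ± 0.26 without female dorsal 1 (adjusted p = 0.0399). Female dorsal 1 was singled out by high values of members such as Myl7, so the p-values without it are not independent support for a ventral excess. Myl7 was higher ventrally in 5 of 6 pairs of one number, and the share of all genes that were so was not counted.

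Sln, at chr9:53850164-53854560 on the plus strand, spread more than any other member with all libraries, and over the other 13 it ranged 12.6-fold, less than Nppa (36.0-fold) and Nppb (20.1-fold). It held 1038, 4.06 and 19.4 normalized CPM in female dorsal, 32.8, 18.98 and 43.0 in female ventral, 7.17, 44.4 and 16.0 in male dorsal and 7.34, 51.0, 16.3 and 46.6 in male ventral libraries, with 11.8 in the unsettled one. Female dorsal 1 was 20.3 times the next library and 256 times the lowest, female dorsal 2, which is of the same group. No change was called, with -0.62 ± 1.49 in females (limma adjusted p = 0.788), 0.40 ± 0.70 in males (adjusted p = 0.816) and 1.61 ± 0.55 in females without female dorsal 1 (adjusted p = 0.0639). In males the dorsal library held 0.976, 0.870 and 0.982 times the ventral library of its number, while the levels of different numbers ran from 7.17 to 51.0.

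Myl4, at chr11:104550663-104595753 on the plus strand, overlapped between the faces in both sexes. Female dorsal libraries held 1415, 611 and 127 normalized CPM, female ventral 387, 126 and 254, male dorsal 283, 302 and 498 and male ventral 213, 402, 309 and 221, and the unsettled library 111. The change was -1.05 ± 0.73 in females (limma adjusted p = 0.308), -0.27 ± 0.62 without female dorsal 1 (adjusted p = 0.781) and -0.34 ± 0.26 in males (adjusted p = 0.575). Without female dorsal 3 it was -2.002 in females and called, higher dorsally (adjusted p = 0.0153).

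Dkk3, at chr7:112116017-112159057 on the minus strand, held 294 normalized CPM in female dorsal 1 and between 8.36 and 29.3 in the other 13 libraries, 10.1 times the next highest. The other female dorsal libraries held 21.8 and 8.36, on either side of the female ventral values of 16.4, 13.6 and 14.4, and male libraries held 21.0, 11.9 and 28.7 dorsally and 21.1, 27.7, 29.3 and 21.2 ventrally. Its change was -1.34 ± 0.97 in females (limma adjusted p = 0.331), 0.11 ± 0.37 without female dorsal 1 (adjusted p = 0.854) and 0.33 ± 0.29 in males (adjusted p = 0.618).

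Pam, at chr1:97795114-98095646 on the minus strand, was the member that differed between the sexes and not between the faces. Female libraries held 261, 200 and 257 normalized CPM ventrally and 511, 296 and 183 dorsally, and male libraries 148, 204, 129 and 82.5 ventrally and 116, 143 and 102 dorsally, with 86.6 in the unsettled male library. The highest male library, male ventral 5, was above female ventral 2 and female dorsal 3, and every other male library was below every female one. The change, male minus female with region as a covariate, was -1.06 ± 0.23 (SE, 6 female and 7 male libraries, limma adjusted p = 0.00791) and -0.88 ± 0.19 without female dorsal 1 (adjusted p = 0.0119). This fit counted the dorsal and ventral library of one number as independent, although such libraries deviated together. Pam was called under all 22 alternatives, among them the averaging of libraries of one number (limma or edgeR adjusted p of 0.00357 to 0.0307). Of 15772 genes, 6.54% were called higher in females, and Pam was the only member called, 1 of 7. Epicardial markers moved the other way, with 5 of 10 called higher in males. Their median log2 change was 1.03, against 0.03 over all genes. The share of all genes called higher in males is not given here. The part of these markers in the Pam difference was not tested. No regional change was called, with -0.35 ± 0.31 in females (adjusted p = 0.431) and 0.17 ± 0.27 in males (adjusted p = 0.798).

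**Figure D3:**
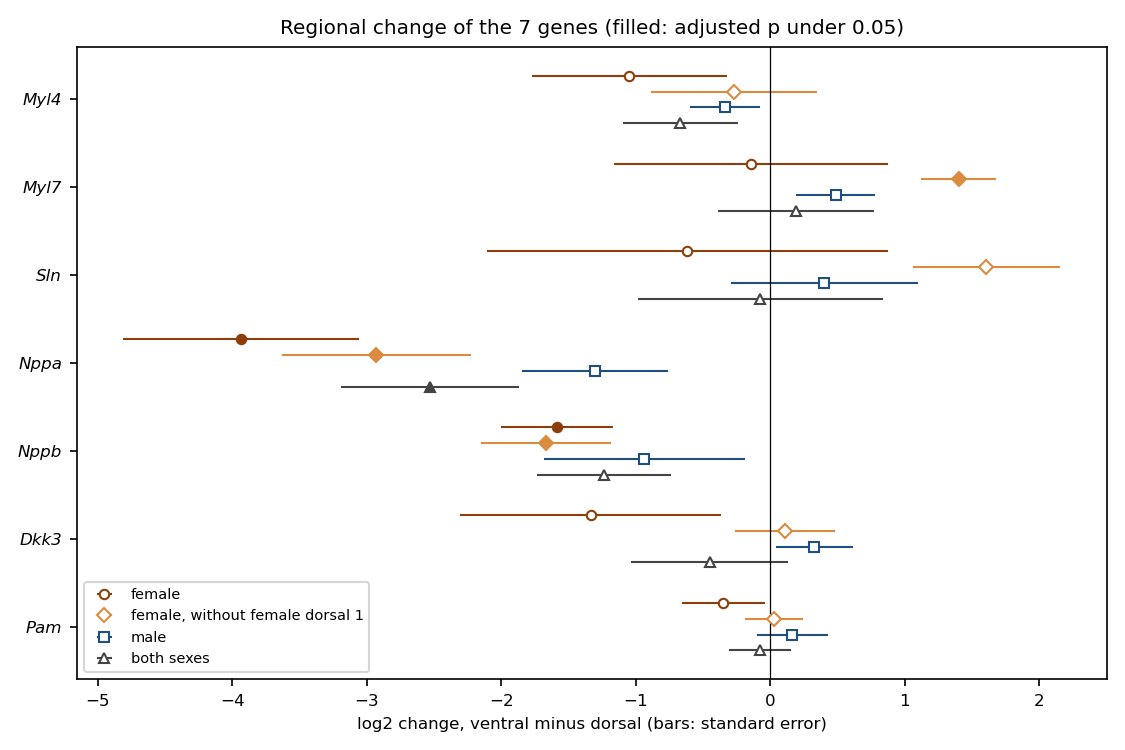
Fitted log2 change of the 7 genes, ventral minus dorsal, with its standard error, in females with and without female dorsal 1, in males and over both sexes, filled where the adjusted p was under 0.05. Nppa and Nppb lie left of 0 in every fit, and the female Myl7 estimate moves from -0.14 to 1.40 when female dorsal 1 is left out.

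Ratios within a library, which do not depend on its scaling, were taken between atrial genes and their ventricular counterparts. Myl7 was 5.38 times Myl2, the ventricular regulatory light chain, in female dorsal 1 and between 0.0871 and 0.814 times Myl2 in the other 13 libraries. Myl4 was 0.865 times Myl3, the ventricular essential light chain, in female dorsal 1 and between 0.0428 and 0.166 times in the others. Sln was 0.975 times Pln in female dorsal 1 and between 0.00174 and 0.0766 times in the others. All 3 ratios were thus highest in this library. Nppa was 23.4 times Nppb in female dorsal 1 and between 0.591 and 3.39 times elsewhere.

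Across regions, none of the ratios was called. In two-sided exact permutation tests over libraries, adjusted over 12 tests, the log2 ratio of Nppa to Nppb differed by -2.36 (ventral minus dorsal) in females (p = 0.1, the smallest that 3 against 3 can give, adjusted p = 0.6; -1.27 without female dorsal 1), by -0.37 in males (p = 0.543, adjusted p = 0.939) and by -1.36 over both sexes (p = 0.03, adjusted p = 0.36). All 3 female dorsal libraries had a higher ratio than all 3 female ventral ones. The log2 ratio of Myl7 to Myl2 differed by 0.49 over both sexes (exact permutation p = 0.704), and by 1.44 without female dorsal 1 (p = 0.0143, unadjusted). That of Sln to Pln differed by 0.74 (exact permutation p = 0.641), and by 2.02 without it (p = 0.0429, unadjusted). That of Myl4 to Myl3 differed by -0.21 (exact permutation p = 0.82). Female dorsal 1 was singled out by high values of members such as Myl7 and Sln, so the p-values without it are not independent support. With 4 against 3 male libraries the smallest p is 0.0286.

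Female dorsal 1 was compared with all other libraries gene by gene, as a description. It had 20 genes at 10 normalized CPM or more and at least 4-fold above the next library, 0.126% of the 15894, and no other library had more than 8. Of these 20, 3 were members, Sln, Dkk3 and Myl7. Of 12 listed genes among 15 further atrial genes, 10 were highest in female dorsal 1 and 4 were at least 4-fold above the next library, against 7.10% of all genes highest in this library. These were Myl1, a light chain of fetal atrial and skeletal muscle, at 718 normalized CPM and 24.0 times the next library, Fgf12 at 18.4 times, Mybphl, a myosin-binding protein of the atria, at 16.3 times and the transcription factor Tbx5 at 4.84 times. The atrial potassium channel gene Kcna5 and the atrial regulator Nr2f2 were the 2 not highest there.

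Genes of the sinus venosus and pacemaker region showed it as well. Of 7, 5 were listed and 4 were highest in female dorsal 1, with Vsnl1 at 14.1 times the next library, Shox2, a factor needed for the sinus node, at 5.85 times, the pacemaker channel gene Hcn4 at 4.74 times and Tbx3 at 2.70 times. Smoc2 stood at 0.1404 times the highest other library, and Isl1 was not listed. Of 10 ventricular muscle genes 0 were highest in female dorsal 1, with Myl2 at 0.432 and Myl3 at 0.404 times the highest other library, and of 10 genes of both chambers 1 was, Myh6 at 1.06 times. How much atrial tissue this library held was not tested. These lists were written with earlier results of these data known.

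**Figure D4:**
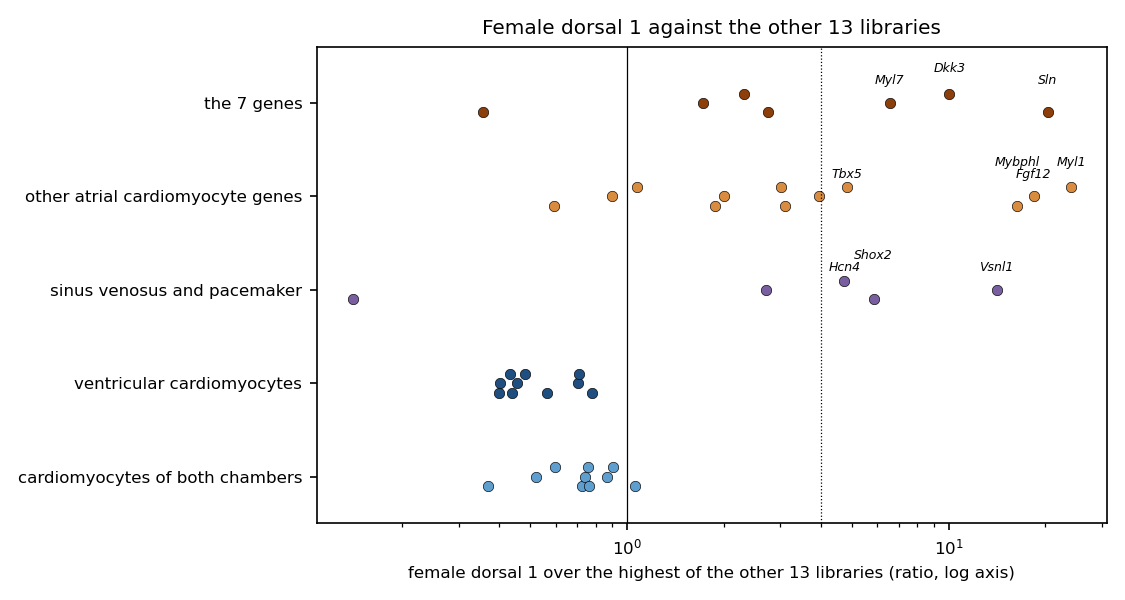
Level in female dorsal 1 divided by the highest of the other 13 libraries, on a log axis, with 1 point per gene for the 7 members and 4 lists. Points right of the dotted line at 4 are named and belong to the members and the atrial and pacemaker lists, while all 10 ventricular genes lie left of 1.

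The rest of the natriuretic peptide pathway did not move in 1 direction. Of 10 genes 9 were tested in females and 5 were called, of which 3 were higher ventrally, where 27.8% of all 14411 genes were called. The median log2 change was 0.91, against 0.01 over all genes. Corin, the membrane protease that cuts the Nppa precursor to active peptide, held 103, 49.8 and 27.4 normalized CPM in female dorsal and 14.1, 11.4 and 16.8 in female ventral libraries, without overlap. Such groups, with dorsal higher, were found for 21.6% of all genes in females. Corin changed by -1.83 ± 0.39 in females (limma adjusted p = 0.00852), by -1.35 without female dorsal 1 (adjusted p = 0.0147) and by -1.22 ± 0.32 over both sexes (adjusted p = 0.0185). It was higher dorsally in 5 of 6 pairs, and the share of all genes that were so was not counted. Ide, an insulin- and natriuretic-peptide-degrading protease, was also higher dorsally (-1.15 ± 0.19, adjusted p = 0.00284). Npr3, the clearance receptor, was higher ventrally in females (1.79 ± 0.34, adjusted p = 0.00488), as were the proprotein convertases Furin (0.91 ± 0.22, adjusted p = 0.0147) and Pcsk6 (2.10 ± 0.43, adjusted p = 0.00678). The guanylyl cyclase receptors Npr1 and Npr2 had changes of 1.0002 ± 0.38 (adjusted p = 0.0740) and 0.86 ± 0.30 (adjusted p = 0.0564). Over both sexes 2 of 9 were called higher dorsally, Corin and Ide, where 9.06% of all genes were. Npr3 was called higher ventrally, and the share of all genes called in that direction is not given here. Among epicardial markers 8 of 10 and among fibroblast markers 6 of 8 were called higher ventrally in females, and their part in the receptor and convertase values was not tested.

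Other atrial genes had 2 calls of 11 tested in females, where 27.8% of all genes were called. They were Kcnj5 (-1.65 ± 0.37, adjusted p = 0.0103), a subunit of the muscarinic potassium channel, and Gja5 (-2.74 ± 0.46, adjusted p = 0.00305), which encodes connexin 40 of atrial muscle and arterial endothelium. Both were higher dorsally, and over both sexes Kcnj3 joined them (-1.35 ± 0.39, adjusted p = 0.0278). Sinus venosus genes had 1 call of 5, Smoc2, higher ventrally (1.87 ± 0.28, adjusted p = 0.00187). Without female dorsal 1, atrial genes had 3 calls of 9 tested, 2 higher dorsally and 1 higher ventrally. Sinus venosus genes then had 2 calls of 5, both higher ventrally, where 22.9% of all genes were called in either direction. Among muscle genes outside the atria, against the same 27.8%, the calls in females were 1 of 10 ventricular genes (Gja1, -1.11 ± 0.22, adjusted p = 0.00553) and 2 of 10 genes of both chambers (Ttn, 1.40 ± 0.22, adjusted p = 0.00245, and Ryr2, 0.65 ± 0.18, adjusted p = 0.0256). Without female dorsal 1 the ventricular count was 4 of 10, against 22.9% of all genes, all higher dorsally, adding Pln, Irx4 and Hey2, and Ryr2 was no longer called (adjusted p = 0.0521).

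Wall stretch and load genes were tested beside Nppb. Of 8, 7 were tested and 1 was called in females, Rcan1, a target of calcineurin signalling (-1.25 ± 0.27, limma adjusted p = 0.00819). In the same comparison 27.8% of all genes were called. Ankrd1 stood at -0.94 ± 0.57 (adjusted p = 0.243), Acta1 at -0.93 ± 0.63 (adjusted p = 0.300), Csrp3 at -0.60 ± 0.24 (adjusted p = 0.0890), Fhl1 at 0.40 ± 0.18 (adjusted p = 0.118), Myh7 at -0.16 ± 0.32 (adjusted p = 0.737) and Xirp2 at -0.15 ± 0.49 (adjusted p = 0.847), while Ankrd2 was not listed. Over both sexes 2 of 7 were called higher dorsally, Csrp3 and Rcan1, where 9.06% of all genes were. Fhl1 was called higher ventrally, and the share of all genes called in that direction is not given here.

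The lists nearest to single members are read against the 27.8% of all genes called in females. Of 7 genes around the calcium pump that Sln inhibits, 4 were tested and 0 called in females by limma, with Pln at -0.88 ± 0.31 (adjusted p = 0.0609), Atp2a2 at 0.07 ± 0.17 and Atp2a3 at 1.19 ± 0.46, while Atp2a1, Mrln and Strit1 were not listed. Over both sexes Pln was called higher dorsally (-0.79 ± 0.24, adjusted p = 0.0325). Of 11 myosin light chain genes only Myl12b was called in females (0.63 ± 0.16, adjusted p = 0.0169). Of 9 Dickkopf and co-receptor genes 5 were tested, and Dkk2 was called higher dorsally (-1.44 ± 0.41, adjusted p = 0.0282) and Kremen1 and Lrp5 higher ventrally (0.90 ± 0.19 and 0.85 ± 0.27). Of 8 partners and substrates of Pam 5 were tested, and Calca was called (1.05 ± 0.34, adjusted p = 0.0455), while Adm stood at -0.69 ± 0.44, Cyb561 at 0.67 ± 0.41, Atp7a at 0.31 ± 0.17 and Calcb at 0.75 ± 0.57. Without female dorsal 1, Calca and Lrp5 were no longer called, and Dkk2 was below the filter.

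Of 11 transcription factors known at the Nppa promoter, 2 were called in females, both higher dorsally, where 27.8% of all genes were called. Nkx2-5, the cardiac homeobox factor, held 91.3, 116 and 94.1 normalized CPM dorsally and 35.6, 23.7 and 20.03 ventrally, a change of -1.92 ± 0.21 (limma adjusted p = 0.000609), and Mef2c changed by -0.48 ± 0.14 (adjusted p = 0.0286). Mef2c was not called without female dorsal 1 (adjusted p = 0.0736), while Nkx2-5 was (-1.98, adjusted p = 0.00209). Gata4 was called higher ventrally over both sexes (0.30 ± 0.10, limma adjusted p = 0.0425, and 0.0533 without female dorsal 1). Gata4 and Gata6 were called higher in females than in males (-0.58 ± 0.10 and -0.86 ± 0.13), as were 6.54% of all genes. The fit between the sexes counted the dorsal and ventral library of one number as independent. In the male regional comparison 0 genes of these lists were called by limma, as were 0 of all 14917 genes. Of the remaining cell markers in females, 2 of 6 smooth muscle and 1 of 3 erythroid genes were called, all 3 higher dorsally, against the same 27.8%. By limma 0 of 6 endothelial genes and 0 of 1 nerve gene were called, and no lung epithelial gene was listed. The smooth muscle count was 0 of 6 by limma without female dorsal 1.

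Likeness over libraries was described by Pearson's r of log2(normalized CPM + 1) over 14 libraries, against 9574 genes with a mean of at least 10, without a test. Libraries share depth, region and number, so these values describe the libraries. Nppa and Nppb correlated at 0.74 (Spearman's rho 0.81), and at 0.89 (rho 0.82) over the 13 libraries without female dorsal 1. Nppa and Myl7 correlated at 0.41 with it and at -0.36 without it. Myl7 and Sln correlated at 0.89 (rho 0.74) and, without it, 0.66 (rho 0.68). Myl4 followed Ankrd1, the muscle ankyrin repeat gene, at 0.97 and at 0.95 without it, and next Rxfp1, Gria1, Myl9 and Myom2 (0.91 to 0.84). Myl7, Sln and Dkk3 shared Gm47547 among the 5 genes most like each, with r of 0.89 for Myl7, 0.87 for Sln and 0.84 for Dkk3. Without female dorsal 1 these were 0.67, 0.58 and 0.33. The gene most like Nppa was Scfd1 (0.85), that most like Nppb was Snap29 (0.92) and that most like Pam was Casd1 (0.93).

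**Figure D5:**
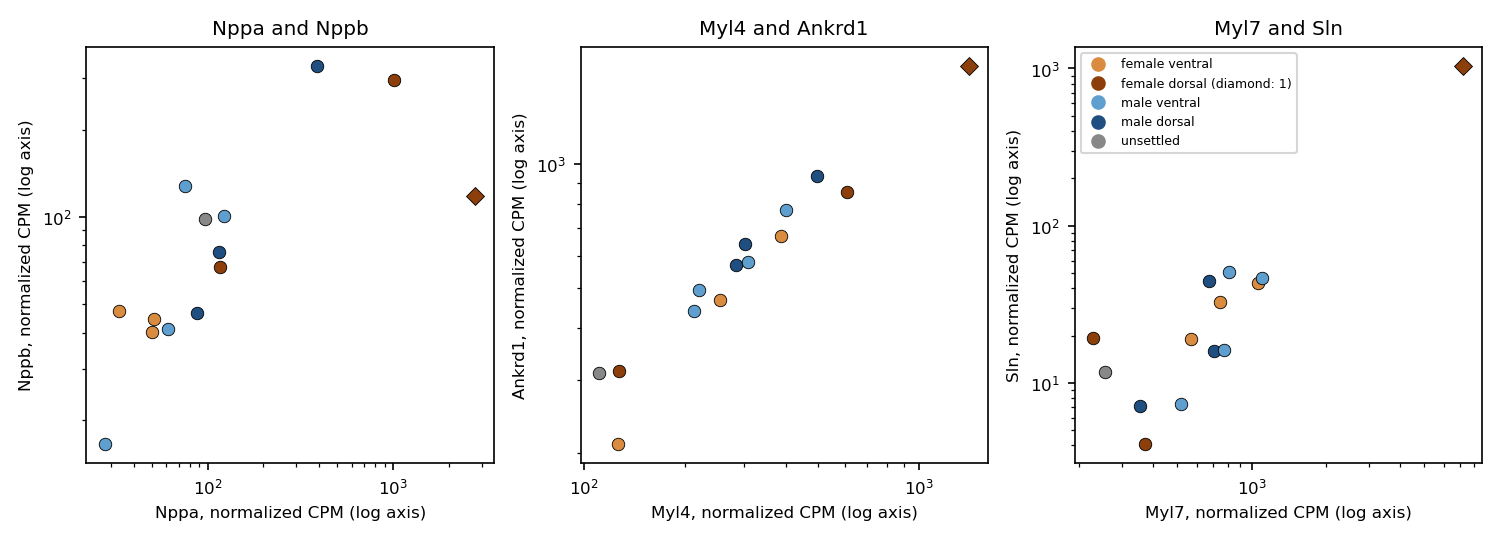
Normalized CPM of 3 gene pairs over the 14 libraries on log axes, coloured by group, with a diamond for female dorsal 1. Ankrd1 rises with Myl4 through the whole range, while in the Myl7 and Sln panel the diamond lies far from the other 13 libraries.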

How the data were processed

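Poly(A) RNA of 14 libraries was sequenced as single reads. Following the study's methods and the submitters' processing notes, the authors trimmed adapters with cutadapt, quantified genes with RSEM on GRCm38 and normalized with limma. The signal they deposited, for 15894 genes, is a normalized CPM: whole reads plus an offset, divided by a scaled library size. Dividing by the step of each column gave whole reads for 100% of the values, within 0.02 reads. The depth was 13.9 to 25.2 M reads per library, and the counting error of the members is small beside the spread of libraries. Assignment by strand is not given in the sources used here.

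Groups came from the sample labels. Ventral was compared with dorsal within each sex and over both (sex as covariate), male with female (region as covariate), and the regional change of males with that of females (interaction). All were fitted with limma 3.58.1 in R 4.3.3 (lmFit, eBayes with trend) on log2(value + 1) over genes at 1 or more in at least 3 libraries of the fit. The pseudocount understates the change of low genes. Calls were made under 0.05 after Benjamini-Hochberg adjustment across every gene tested, and p-values measure the spread between these libraries. Within-library ratios were tested by exact permutation. The tests were checked on simulated data.

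Libraries of one number deviated together, with correlations of 0.187, 0.169, 0.269, 0.425, 0.175 and 0.349 for numbers 1 to 6 over 15870 genes, and the number was used as a block in alternatives, together with edgeR 4.0.16 on recovered reads, other filters, pseudocounts and scalings, a correction for GC content and length (splines with 5 degrees of freedom), marker covariates and each library left out in turn. Counts of list genes without female dorsal 1 were added after seeing the data. Genes named are the 7 members in every library, genes of the lists that were called, all genes of lists of up to 8, and the 5 genes most like each member. A few genes that this rule names are not reported here. The genes and lists were chosen with earlier results of these data known, so no count over a list is independent support.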

Additional observations from a re-analysis of the deposited data

Results flagged for a closer look

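Among the members and their lists, 1 gene met the rule that a regional change differs between the sexes by its own test. Over all 15772 genes of this test, 2.73% were called. Nkx2-5, a factor known at the Nppa promoter, changed by -1.92 ± 0.21 (ventral minus dorsal, log2) in females and stood at 0.01 ± 0.32 in males, a difference of 1.93 (limma, adjusted p = 0.0252). It was higher in all 3 female dorsal than in all 3 female ventral libraries, as were 21.6% of the 14411 genes tested in females. The sexes carry different library numbers, so sex and numbering series cannot be told apart. In the male ventral group of 4 libraries, 11 values (the 7 genes and 4 ratios) were looked at for a single distant library and 0 were beyond the critical value, where chance puts about 1 in 20. Groups of 3 libraries were not looked at in this way, so the check does not cover female dorsal 1.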

How the results depend on the processing

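The dorsal excess of Nppa in females was called under all 15 alternatives (-5.21 to -2.93), and the female excess of Pam under all 22 (-1.18 to -0.88). Nppb in females was called under 12 of 15, and eBayes without trend left 1 of the 7 genes called (Nppb adjusted p = 0.0542) and called 1 gene in males.

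With the replicate block, numbers 1 to 6 pairing the libraries, 76 genes were called in males (56 with the GC and length correction), 2 of the 7 in males and 2 over both sexes with or without the correction, and 804 for the interaction. The block changed no other call of a member. The log2 change over both sexes turned sign for Pam, to 0.0240 (0.00701 with the correction), and for Myl7, to -0.119 with the correction, neither called. Over both sexes 1922 genes and 2 members were called with the cardiomyocyte covariate (Pam log2 change 0.118) and 0 genes and 0 members with the epicardial covariate (Nppa log2 change -2.35, adjusted p = 0.253; log2 changes of 0.37 for Sln, 0.25 for Dkk3 and 0.51 for Pam, none called), where limma had called 2974. The cause was not tested. The log2 change of Myl7 over both sexes was -0.57 with edgeR and -0.0169 with the GC and length correction. With the unsettled library as dorsal, Myl4 in males was 0.0756, and over both sexes Sln 0.0419 and Pam 0.0108. Between the sexes Nppb was -0.00158 with the median of ratios, -0.16 with libraries of 1 number averaged (1053 genes called) and -0.0232 with all 14 libraries.

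Leaving out each library in turn gave 2158 to 3845 genes and 1 to 3 members called in females, 0 to 12 genes in males, 1429 to 3646 genes and 0 to 2 members over both sexes, and 260 to 447 genes and 0 to 1 members for the interaction. The member changes that turned sign had ranges, in females, of -1.09 to 1.40 for Myl7, -2.23 to 1.61 for Sln, -2.38 to 0.11 for Dkk3 and -0.71 to 0.0293 for Pam. In males they were -0.18 to 1.05 for Sln, -0.00215 to 0.60 for Dkk3 and -0.0360 to 0.40 for Pam. Over both sexes they were -0.16 to 0.86 for Myl7, -0.68 to 0.90 for Sln, -0.79 to 0.24 for Dkk3 and -0.19 to 0.11 for Pam. Between the sexes they were -0.43 to 0.28 for Myl4, -0.64 to 0.39 for Myl7, -1.43 to 0.15 for Sln, -0.29 to 0.29 for Nppb and -0.42 to 0.61 for Dkk3. For the interaction they were -0.0679 to 1.67 for Myl4, -0.91 to 1.58 for Myl7 and -1.20 to 2.64 for Sln. The log2 ratio of Myl7 to Myl2 ran from -1.19 to 1.79 in females and -0.0440 to 1.44 over both sexes, that of Myl4 to Myl3 from -1.78 to 0.36 and -0.73 to 0.34, that of Sln to Pln from -1.66 to 2.91 and -0.26 to 2.02, and that of Nppa to Nppb over both sexes from -1.76 to -0.82 (unadjusted exact permutation p of 0.02 to 0.1). Leaving out female dorsal 1 gave the upper end for Myl7, Sln, Dkk3 and Pam in females and over both sexes, and leaving out female dorsal 3 (female dorsal 2 for Sln) the lower end.

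The lowest member count was 74 reads, and the regional groups held 3 or 4 libraries each.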
